A study of Danio rerio and Garra andruzzii with 24 samples.

Results

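The respiratory chain of mitochondria passes electrons from NADH to oxygen through complexes I, III and IV and uses the proton gradient so built to make ATP at complex V. Most subunits are encoded in the nucleus and imported, while 13 are encoded in the mitochondrial genome, so that each of these complexes joins products of both genomes. Mitochondrial mRNAs of vertebrates are cut from long transcripts that cover many genes at once, whereas each nuclear gene has its own promoter.

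To follow both sets during light exposure, every gene of the zebrafish genome table was taken whose name begins with ndufa, ndufb, ndufc, ndufs or ndufv (complex I), uqcr or cyc1 (complex III), cox4 to cox8 (complex IV), atp5 (complex V) or mt- (mitochondrial genome) and whose mean raw count over the 12 PAC-2 libraries was 10 or more. This gave 99 of 114 matching names among 35886 genes, and all 99 were among the 18017 genes tested. They comprise 33 subunits of complex I, 8 assembly factors of complex I (the ndufaf genes, which the prefix ndufa takes in), 8 subunits of complex III, 17 of complex IV, 20 of complex V and the 13 protein-coding genes of the mitochondrial genome. The member with the lowest mean was *cox6a2* (mean raw count of 35.8), and the names just outside were *uqcrb* (6.67) and *cox5b2* (6.5).

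PAC-2 is a fibroblast line made from zebrafish embryos, and EPA is a line made from embryos of the blind Somalian cavefish *P. andruzzii*. Cells of both lines stood in darkness for 2 days and were then given blue light with a peak at 468 nm for 0 h (dark control), 1 h, 3 h or 6 h, with 3 RNA-seq libraries of poly-A selected mRNA for each line and time. No libraries of cells kept dark beyond 0 h are among the samples, and the effect of light cannot be told apart from that of elapsed time. Whether the libraries of a time stem from separate cultures is not stated, so that p-values rest on a spread between libraries that may be technical only. As bulk samples, they cannot separate fewer cells of a type from less RNA per cell.

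Total counts of the 12 PAC-2 libraries ranged from 20037859 to 32521127. Of 15 fibroblast markers, 11 were above 10 TPM at 0 h, led by *col1a2*, and their summed level was 1700 to 1936 TPM at 0 h, 1596 to 1615 at 3 h and 1845 to 1873 at 6 h. Of 9 muscle markers, 3 were above 1 TPM at 0 h and 1 above 10 TPM, *acta1a* at 60.8 TPM, with *mylpfa* at 0. Their summed level, at 0 h mostly that of *acta1a*, was 67.4 to 67.9 TPM at 0 h, 48.4 to 55.2 at 3 h and 36.5 to 43.7 at 6 h. The part of these shifts in the results was not tested. TPM here is the count per gene length, scaled to the same sum in every library, and it is used wherever levels of different genes are compared.

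In PAC-2 cells, the nuclear genes of complexes I and III to V were mostly higher at 3 h and then lower at 6 h, in small steps. The group medians went this way in all 4 complexes, but few genes were called lower at 6 h in complexes III (2 of 8) and IV (2 of 17). Counts were fitted with edgeR over all genes, and a gene was called at a Benjamini-Hochberg adjusted p under 0.05 over the 18017 genes. At 3 h, 55 members rose and 1 fell (*mt-nd4l*), against 11.3% of all genes called higher and 10.1% called lower. The members called higher were 55.6% of the 99. At 6 h, 3 members rose and 32 (32.3%) fell, against 14.1% and 14.9% of all genes. The median log2 fold change of the 86 nuclear members was 0.29 at 3 h and -0.21 at 6 h, and that of all genes tested was -0.00 and 0.00.

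These 2 comparisons share their 0 h libraries, and another comparison without them, chosen after the values were seen, set 6 h against 3 h. Here 87 members (87.9%) were lower and 2 higher (*mt-nd4l* and *mt-nd5*), against 20.1% and 20.4% of all genes, with a median of -0.48 for the nuclear members. Of the 99 members, 18 were called both higher at 3 h and lower at 6 h, and 3 were called higher at both times. Such joint calls were not counted over all genes, so these counts have no background beside them. No member passed the stricter thresholds of the study (adjusted p under 0.001 and a log2 fold change of 1 or more in size), which 0.733% of all genes passed at 3 h and 1.54% at 6 h.

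After 1 h of light, 0 members were called in either direction by edgeR or by DESeq2, against 0.155% of all genes called higher and 0.0167% called lower. At an unadjusted p under 0.05, edgeR gave 0 members higher and 1 lower, *ndufa8*, against 610 and 475 of the 18017 genes. With *ndufa8* set aside, the members lay between -0.36 and 0.13 on the log2 scale.

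**Figure D1:**
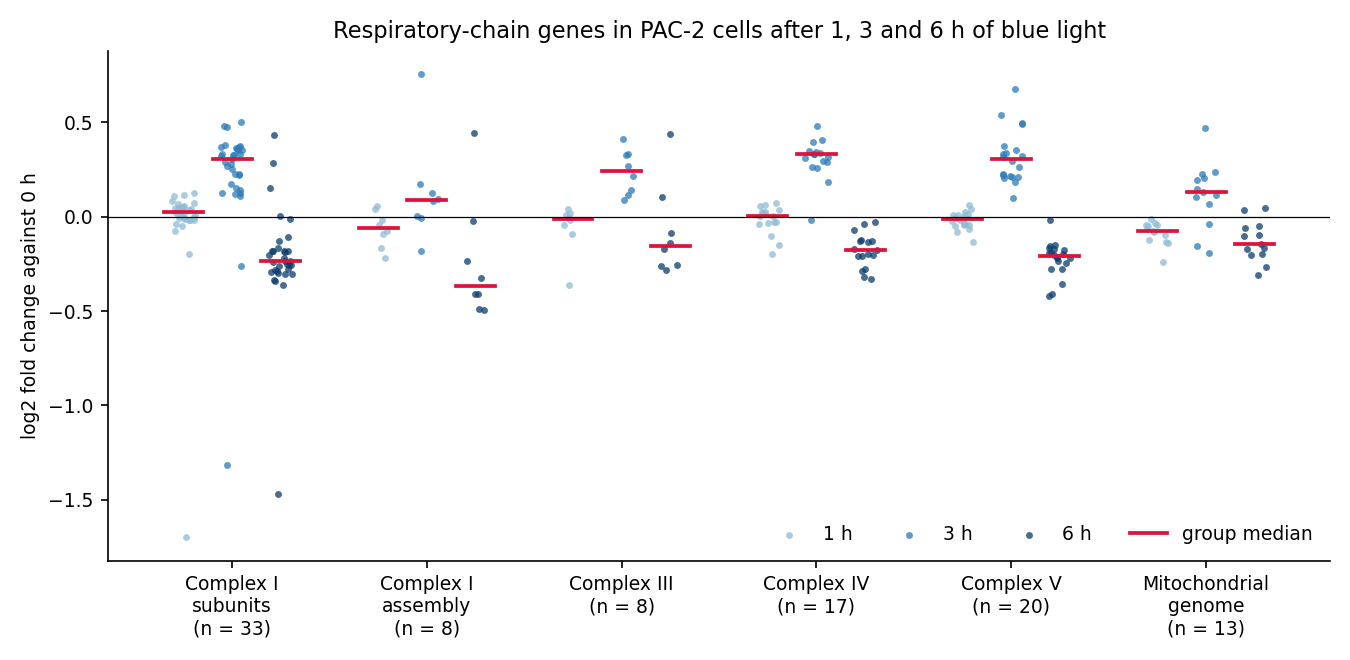
Log2 fold change of each of the 99 members against 0 h in PAC-2 cells (vertical axis), by group (horizontal axis) and hours of blue light (shade), with the group median as a red bar. The medians lie near 0 at 1 h, above 0 at 3 h in every group and below 0 at 6 h in every group, and the isolated low points of complex I subunits are *ndufa8*.

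The counts depended on single libraries. Leaving out 0 h replicate 1 or 3 h replicate 2 left 33 members higher at 3 h. At 6 h, 14 members were lower without 0 h replicate 3 and 16 without 6 h replicate 2, whereas 55 were lower without 0 h replicate 1. The 14 and 16 of 99 were near the 14.9% of all genes called lower in the main fit. The shares of all genes in the fits with a library left out are not given here. The 0 h libraries themselves differed. The median log2 ratio of the nuclear members to their 0 h mean was -0.11 in replicate 1, -0.01 in replicate 2 and 0.10 in replicate 3. In the light libraries, this median lay between -0.09 and 0.13 at 1 h, between 0.23 and 0.39 at 3 h and between -0.24 and -0.18 at 6 h. The 3 h libraries were thus above and the 6 h libraries below each of the 0 h and 1 h libraries.

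This order ran opposite to that of the TMM factors, the library factors that edgeR derives from all genes. They were 0.930 to 0.946 at 3 h and 1.041 to 1.051 at 6 h, against 0.971 to 1.036 at 0 h. Within each of the 4 times, too, the library with the lower factor had the higher median. A low factor raises every normalised count of a library. With library totals alone, an alternative chosen after seeing the data, 46 members rose and 3 fell at 3 h, and 5 rose and 27 fell at 6 h. The medians of the nuclear members were then 0.19 and -0.15, where all genes had medians of -0.11 and 0.06. At 3 h, the calls over all genes shifted from 2031 higher and 1827 lower to 1271 and 3559. At 6 h against 0 h, they shifted from 2546 higher and 2686 lower to 2910 and 2016. From 3 h to 6 h, 64 members were then lower and 4 higher, with a median of -0.32 against 0.16 for all genes, of which 5776 were called higher and 1714 lower. The raw share of counts moved likewise. Nuclear members took 1.54% ± 0.053 (SD, n = 3) of all counts at 0 h, 1.73% ± 0.0565 at 3 h and 1.45% ± 0.0215 at 6 h, with no overlap between these times. The exact permutation test over libraries, two-sided, gave p = 0.1 at 3 h and at 6 h against 0 h, the smallest value that 3 against 3 libraries allow. At 1 h the share was 1.55% ± 0.0936 and overlapped that of 0 h (same exact test, p = 1).

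**Figure D2:**
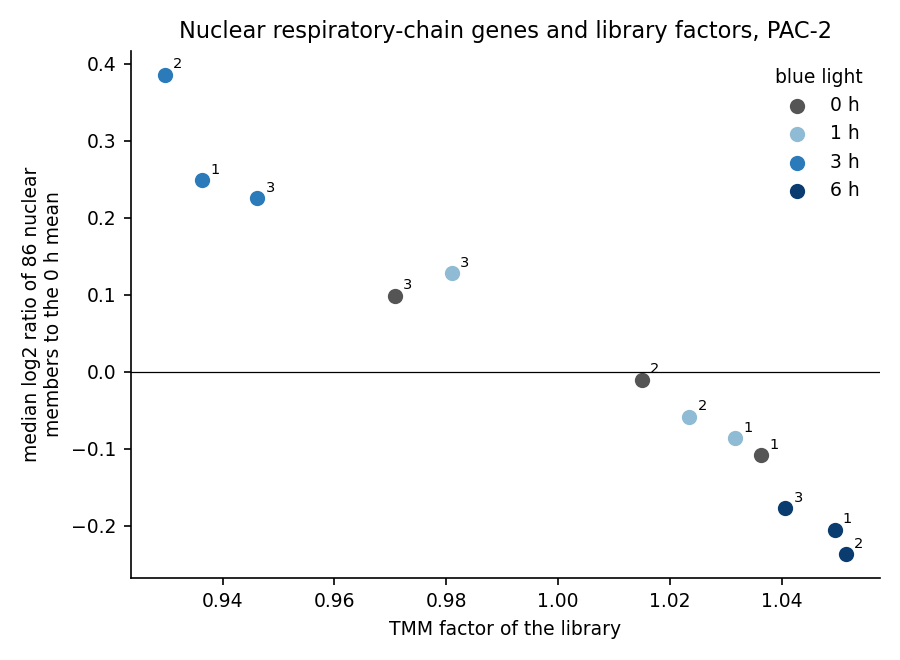
Each dot is 1 PAC-2 library, with its TMM factor (horizontal axis, no unit) and the median log2 ratio of the 86 nuclear members to their mean at 0 h (vertical axis); numbers are replicates and shades are hours of blue light. The 3 h libraries sit at the upper left, the 6 h libraries at the lower right, and within each time a lower factor goes with a higher median.

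Gene length moved with the same comparisons. The median length of the nuclear members in the deposited table was 981 bases, against 2432 for all genes tested, and 59 of the 86 belonged to the shortest 20% of genes. The median log2 fold change of those 20% was 0.09 at 3 h and -0.06 at 6 h, and that of the longest 20% was -0.10 at 3 h and 0.07 at 6 h. With the trend of each library along gene length removed, an alternative chosen after seeing the data, 48 members rose at 3 h, 32 fell at 6 h and 68 were lower at 6 h than at 3 h. How many of all genes were called in that fit is not given here, so these counts have no background beside them. The median of the nuclear members was then 0.23 at 3 h and -0.17 at 6 h. Reads of the 2 mitochondrial ribosomal RNAs, which poly-A selection mostly removes, were 0.0674% to 0.0764% of counts at 0 h, 0.0645% to 0.0672% at 3 h and 0.0765% to 0.0781% at 6 h. The genes of cytosolic ribosomal proteins, another set of short and abundant mRNAs, gave 66 higher and 1 lower of 86 tested at 3 h (median of 0.33). At 6 h against 0 h, 1 was higher and 3 were lower (median of -0.13), whereas 32 of the 99 members were lower. From 3 h to 6 h, 2 of the 86 were higher and 72 lower, with a median of -0.46 beside the -0.48 of the nuclear members. The shares of all genes called higher and lower were 11.3% and 10.1% at 3 h, and 14.1% and 14.9% at 6 h. For 6 h against 3 h they were 20.4% and 20.1%. The part of library composition, gene length and RNA quality in the changes of the members was not tested beyond these values.

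Against this common course, *cyc1*, *ndufv1* and *ndufaf4* were higher at both times. *cyc1*, on chromosome 6 (50381347 to 50390089, GRCz11), encodes cytochrome c1, the heme-carrying subunit that hands electrons from complex III to cytochrome c. Its normalised counts, TMM-normalised at the mean library size, were 11388, 11748 and 13111 at 0 h, 11454, 12231 and 13104 at 1 h, 16077, 16553 and 15542 at 3 h, and 16331, 16000 and 16843 at 6 h. Every 3 h and 6 h library was above every 0 h and 1 h library. The log2 fold change was 0.41 ± 0.06 (SE) at 3 h (edgeR, adjusted p = 0.000131) and 0.44 ± 0.06 at 6 h (adjusted p = 3.17e-05), a 1.36-fold level at 6 h.

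*ndufv1*, on chromosome 19 (9212031 to 9228512), encodes the flavin-binding core subunit of complex I that takes up electrons from NADH. It had normalised counts of 7427, 7397 and 7934 at 0 h, 7241, 7655 and 8198 at 1 h, 9766, 9969 and 9702 at 3 h, and 10177, 10192 and 10344 at 6 h. Again the 3 h and 6 h libraries were all above those of 0 h and 1 h, and those of 6 h were all above those of 3 h, although the difference between 3 h and 6 h (0.06 ± 0.05) was not called. The change against 0 h was 0.37 ± 0.05 at 3 h (edgeR, adjusted p = 4.9e-05) and 0.43 ± 0.05 at 6 h (adjusted p = 4.43e-06), or 1.35-fold at 6 h.

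*ndufaf4*, on chromosome 20 (400487 to 403812), encodes an assembly factor that acts on early intermediates of complex I in human cells. Its counts were far lower, with 238, 239 and 303 at 0 h, 254, 280 and 273 at 1 h, 440, 446 and 429 at 3 h, and 343, 364 and 352 at 6 h. The 3 h libraries were the highest, the 6 h libraries lay between them and 0 h, and none of the 3 sets overlapped. With 0.76 ± 0.09 at 3 h (edgeR, adjusted p = 3.03e-05), or 1.69-fold, it had the largest log2 fold change at 3 h of the 99 members, and at 6 h it stood at 0.44 ± 0.09 (adjusted p = 0.00193). The calls of these 3 genes at both times were kept under every alternative run, with adjusted p of at most 0.0129.

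**Figure D3:**
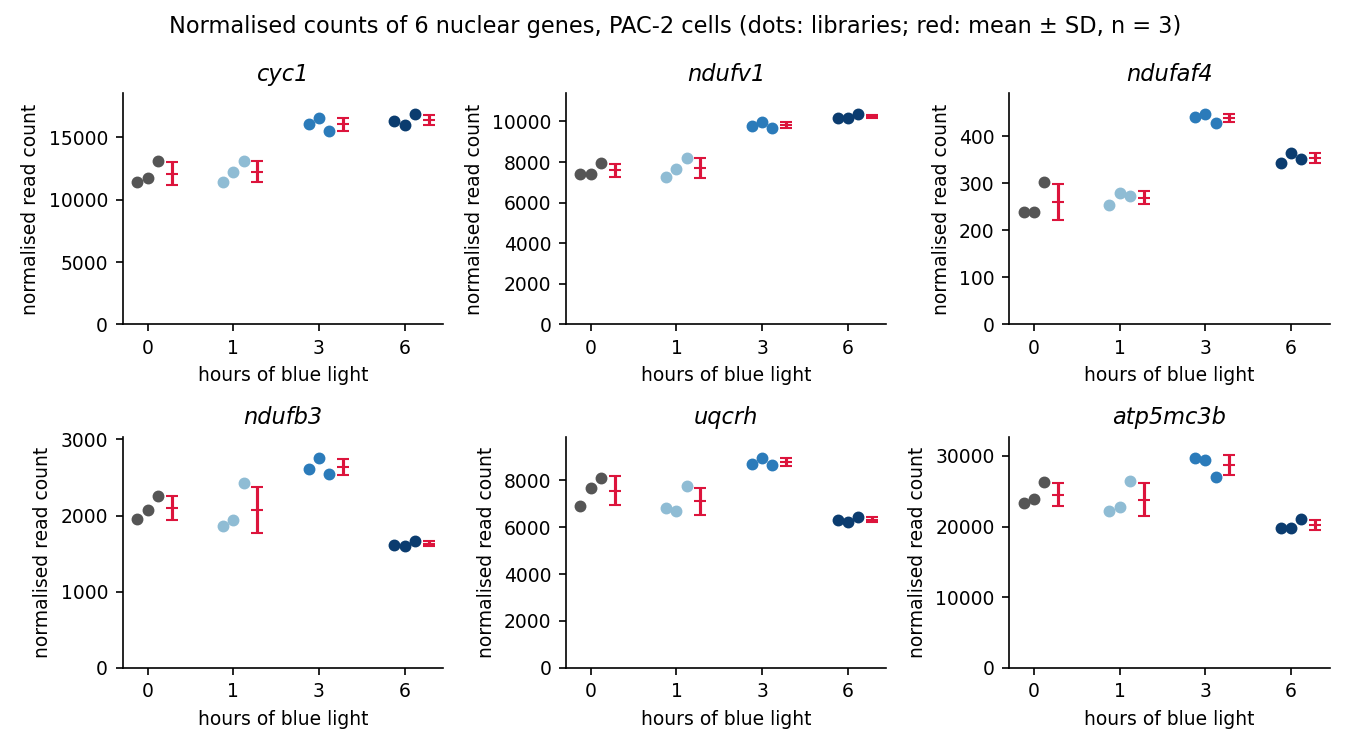
Normalised read count (vertical axes, from 0) of 6 nuclear genes in each PAC-2 library by hours of blue light (horizontal axes), with the mean ± SD of 3 libraries in red. In the upper row, *cyc1*, *ndufv1* and *ndufaf4* stay above 0 h at 6 h, whereas *ndufb3*, *uqcrh* and *atp5mc3b* in the lower row are highest at 3 h and lowest at 6 h.

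Among the 33 subunits of complex I, 19 rose and none fell at 3 h, and 1 rose and 13 fell at 6 h. Of all genes, 11.3% rose and 10.1% fell at 3 h, and 14.1% rose and 14.9% fell at 6 h. The group medians were 0.30 and -0.24. The 3 decreases with the smallest p at 6 h were those of *ndufab1b*, the mitochondrial acyl carrier protein, and of *ndufa7* and *ndufb3*, accessory subunits of the matrix arm and of the membrane arm. *ndufb3* had normalised counts of 1949, 2071 and 2262 at 0 h, 2609, 2756 and 2549 at 3 h, and 1615, 1604 and 1664 at 6 h. Its 3 h libraries lay above and its 6 h libraries below all of those at 0 h. The change was 0.33 ± 0.08 at 3 h (edgeR, adjusted p = 0.0122) and -0.36 ± 0.09 at 6 h (adjusted p = 0.00542). *ndufa7* had 1175 ± 148 normalised counts at 0 h, 1511 ± 72.1 at 3 h and 929 ± 40.01 at 6 h, with changes of 0.37 (adjusted p = 0.00417) and -0.34 (adjusted p = 0.00515). *ndufab1b* went from 2045 ± 64.0 to 2462 ± 155 and 1657 ± 148, with 0.27 (adjusted p = 0.0121) and -0.30 (adjusted p = 0.00371). The 3 h calls of *ndufb3* and *ndufab1b* were lost without 0 h replicate 1 or without 3 h replicate 2, with adjusted p of up to 0.065 and 0.0745 over the alternatives.

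The central subunits of complex I, conserved from bacteria, come from both genomes, and the nuclear ones were looked at after the values of all members were seen. Of these, *ndufv1* and *ndufv2*, which bind flavin and an iron-sulfur cluster, rose at 3 h by 0.37 and 0.28 (edgeR, adjusted p = 4.9e-05 and 0.00952). At 6 h, the value of *ndufv2* was 0.00 and not called. *ndufs3* fell at 6 h (-0.30, adjusted p = 0.0079), and *ndufs8a* was not called at either time (0.13 and -0.01). For *ndufs7*, which carries the last iron-sulfur cluster before quinone, the libraries of a time spread widely, with 792 ± 201 normalised counts at 0 h, 670 ± 394 at 3 h and 966 ± 97.0 at 6 h. In the authors' assembly of the same libraries without a genome, described below, the row named NDUS7 had 2291 ± 189, 2872 ± 70.1 and 2334 ± 148. That row rose by 0.33 at 3 h (edgeR, adjusted p = 0.0244) and was not called at 6 h (0.03), and the cause of the difference was not tested. *NDUFB1*, a small membrane-arm subunit, had the highest level per length of the nuclear complex I genes (451 TPM at 0 h), with log2 fold changes of 0.38 at 3 h (adjusted p = 0.0548) and -0.29 at 6 h (adjusted p = 0.118).

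Of the 8 complex I assembly factors, *ndufaf4* alone rose at 3 h, and at 6 h 3 fell, *ndufaf5*, *ndufaf6* and *ndufaf7*. All genes tested gave 11.3% higher and 10.1% lower at 3 h, and 14.1% higher and 14.9% lower at 6 h. In human cells, NDUFAF5 modifies an arginine of the core subunit that *ndufs7* encodes. *ndufaf7* had 347 ± 49.7 normalised counts at 0 h, 305 ± 3.04 at 3 h and 247 ± 8.04 at 6 h. *ndufaf5* had 315 ± 27.5, 315 ± 14.2 and 237 ± 13.0, and *ndufaf6* 222 ± 9.20, 222 ± 12.3 and 167 ± 14.5. All of their 6 h libraries were below those of 0 h, and the log2 fold changes at 6 h were -0.49, -0.41 and -0.41 (edgeR, adjusted p = 0.0022, 0.00328 and 0.00912). None of the 3 was called at 3 h, where their values were -0.18, 0.00 and -0.01. These 3 calls at 6 h were kept under every alternative run.

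Complex III had 4 of 8 subunits higher and none lower at 3 h, and at 6 h 1 was higher (*cyc1*) and 2 lower, *uqcrh* and *uqcrc2a*. The shares of all genes were 11.3% higher and 10.1% lower at 3 h, and 14.1% and 14.9% at 6 h. *uqcrh*, the acidic hinge protein beside cytochrome c1, was the subunit with the highest level per length (676 TPM at 0 h). It had normalised counts of 6892, 7693 and 8127 at 0 h, 8723, 8961 and 8650 at 3 h, and 6324, 6208 and 6422 at 6 h. The 6 h libraries were all below those of 0 h, and the 3 h libraries all above them. The changes were 0.21 ± 0.06 (edgeR, adjusted p = 0.02) and -0.26 ± 0.06 (adjusted p = 0.00411), and the 3 h call was lost on leaving out replicate 1 of 0 h or replicate 1 or 2 of 3 h (adjusted p of up to 0.106 over the alternatives). *uqcrc2a*, a core protein, fell by 0.26 at 6 h (adjusted p = 0.00477). *uqcrfs1*, the Rieske iron-sulfur subunit, named after its values were seen, rose by 0.27 at 3 h (adjusted p = 0.00311) and was at 0.10 at 6 h (adjusted p = 0.191). Together with cytochrome b of the mitochondrial genome, *cyc1* and *uqcrfs1* encode the electron carriers of the complex.

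Complex IV had the largest share of members called at 3 h, 14 of 17, all higher, with a median of 0.33. At 6 h, 2 fell, *cox7a2a* and the gene listed as *COX7A2* (1 of many), and none rose, with a median of -0.18. All genes tested gave 11.3% higher and 10.1% lower at 3 h. At 6 h, 14.9% of all genes fell and 14.1% rose, so that 2 of 17 was no excess of decreases. *cox7a2a* had normalised counts of 2142, 2267 and 2761 at 0 h, 2854, 3217 and 2816 at 3 h, and 1827, 1926 and 1948 at 6 h. All of its 3 h libraries lay above and all of its 6 h libraries below those at 0 h, by 0.31 ± 0.09 (edgeR, adjusted p = 0.033) and -0.33 ± 0.09 (adjusted p = 0.0202) on the log2 scale. *COX7A2* (1 of many) changed by 0.34 (adjusted p = 0.000552) and -0.17 (adjusted p = 0.0344). The 6 h calls of both were lost without 0 h replicate 3 or 6 h replicate 2. That of *cox7a2a* was also lost without 6 h replicate 1, and that of *COX7A2* (1 of many) without 0 h replicate 2 or 6 h replicate 3 (adjusted p of up to 0.0743 and 0.142 over the alternatives). The 3 h call of *cox7a2a* was lost when replicate 1 or 2 of either time was left out (up to 0.133).

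Several complex IV subunits have paralogs that mammals use in different tissues, and 1 form of most pairs prevailed in PAC-2 cells. *cox4i1* stood at 1247 TPM at 0 h against 9.19 for *cox4i2*, a 136-fold difference in level, and *cox6a1* at 735 TPM against 3.68 for *cox6a2*, the form of heart and skeletal muscle in mammals. *cox8a* stood at 1597 TPM, while *cox8b* had 3 reads in all 12 libraries. *cox7a1*, another muscle form in mammals, had 18 reads in all, and *cox7a3* stood at 6.34 TPM. Both *cox6b* genes were expressed, *cox6b1* at 396 and *cox6b2* at 243 TPM. *cox6c* had the highest level per length of the nuclear complex IV genes (1658 TPM).

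The prevailing forms rose at 3 h. *cox6a1* went from 10860 ± 687 normalised counts to 13680 ± 781 (log2 fold change of 0.33, adjusted p = 0.00145) and *cox8a* from 13070 ± 726 to 15610 ± 765 (0.26, adjusted p = 0.00649). For *cox4i1*, the first nuclear subunit built around the mitochondrial core, the libraries gave 10959, 12111 and 13268 at 0 h, 14592, 14884 and 14113 at 3 h, and 10310, 10323 and 10767 at 6 h. The 3 h libraries were all higher and the 6 h libraries all lower than at 0 h, by 0.26 (edgeR, adjusted p = 0.025) and by -0.21, which was not called (adjusted p = 0.0542). The 3 h call was lost when replicate 1 or 2 of either time was left out (adjusted p of up to 0.109 over the alternatives). *cox6b1*, *cox6b2* and *cox6c* rose at 3 h by 0.33, 0.30 and 0.31 (adjusted p = 0.00881, 0.00342 and 0.00426). The rare forms *cox4i2*, *cox6a2* and *cox7a3* were not called at 3 h (0.19, 0.40 and -0.02) or 6 h (-0.32, -0.27 and -0.29), and with means of 36.1 to 122 normalised counts at 0 h their errors were the widest of the group.

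Complex V, the ATP synthase, had 14 of 20 genes higher and none lower at 3 h, and 10 lower and none higher at 6 h. All genes tested gave 11.3% higher and 10.1% lower at 3 h, and 14.1% higher and 14.9% lower at 6 h. Its medians were 0.305 and -0.21. Genes of the catalytic head, the stalk and the membrane ring were among those that fell at 6 h. *atp5mc3b*, which encodes a protein of the rotating c-ring, had normalised counts of 23328, 23879 and 26346 at 0 h, 29717, 29432 and 27018 at 3 h, and 19826, 19832 and 21104 at 6 h. The groups did not overlap, with changes of 0.23 ± 0.07 at 3 h (edgeR, adjusted p = 0.0242) and -0.28 ± 0.07 at 6 h (adjusted p = 0.00557). *atp5pb*, a subunit of the peripheral stalk, fell by 0.27 at 6 h (adjusted p = 0.0046), and *atp5f1d*, the delta subunit of the central stalk, fell by 0.36 (adjusted p = 0.00518). At 3 h, *atp5pb* rose by 0.21 (adjusted p = 0.0315), while *atp5f1d* (0.20, adjusted p = 0.096) was not called. The 3 h calls of *atp5mc3b* and *atp5pb* were lost when replicate 1 or 2 of either time was left out (up to 0.101 and 0.142). *atp5fa1*, the alpha subunit, had the highest level per length of all nuclear members (2527 TPM at 0 h) and fell by 0.22 at 6 h (adjusted p = 0.0242), a call lost on leaving out replicate 3 of 0 h or replicate 1 or 2 of 6 h (up to 0.107).

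The inhibitor of the enzyme, IF1, is encoded by a pair of genes in zebrafish. The rarer *atp5if1b* (15.1 TPM at 0 h) rose at 3 h from 170 ± 30.9 to 271 ± 35.3 normalised counts, by 0.68 ± 0.15 (edgeR, adjusted p = 0.00416), and stood at 148 ± 16.1 at 6 h (-0.19, adjusted p = 0.378). The more abundant *atp5if1a* (474 TPM) was at 0.29 at 3 h (adjusted p = 0.0972) and fell by 0.42 at 6 h (adjusted p = 0.0195). Both inhibitor genes were lower at 6 h than at 3 h, by 0.87 and 0.72 (adjusted p = 0.000277 and 0.000711). The largest such decrease among the 99 members was that of *ATP5MD*, a small membrane-sector subunit, with -0.90 ± 0.11 (adjusted p = 0.00014). These inhibitor and *ATP5MD* values were chosen after they were seen.

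Summed over the genes of a complex, the TPM levels at 3 h and 6 h were between 0.915 and 1.1 times those at 0 h. Complex V genes summed to 11750 ± 170 TPM at 0 h, 12440 ± 293 at 3 h and 10750 ± 142 at 6 h. Complex IV genes gave 9824 ± 116, 10760 ± 375 and 9594 ± 134, and complex I subunits 4901 ± 131, 5328 ± 271 and 4633 ± 80.7. In complex III, where the abundant *cyc1* stayed high, the sums were 1848 ± 38.7, 1961 ± 28.8 and 1946 ± 33.2. In the exact permutation test, two-sided, p was 0.1 for each sum at 3 h and at 6 h except that of complex IV at 6 h (p = 0.2).

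Among all genes tested, 11.3% rose and 10.1% fell at 3 h, and 14.1% rose and 14.9% fell at 6 h. Of the 13 genes of the mitochondrial genome, 3 rose and 1 fell at 3 h, and none rose and 2 fell at 6 h, with the fallen near the share of all genes at 6 h. Their medians were -0.08 at 1 h, where all 13 values were below 0 and none was called, 0.13 at 3 h and -0.14 at 6 h, and no test compared them with the nuclear genes. Together they took 5.17% ± 0.348 of counts at 0 h, 5.02% ± 0.0456 at 1 h, 5.38% ± 0.171 at 3 h and 4.93% ± 0.0877 at 6 h. The ranges overlapped, and the exact permutation test, two-sided, gave p = 0.7, 0.6 and 0.4 for the light times against 0 h. Per length, they made up 10.3% ± 0.55 of the summed TPM at 0 h, against 2.84% ± 0.0405 for the 86 nuclear members. *mt-co1*, the catalytic core of complex IV, had 417500 ± 35170 normalised counts at 0 h, and *mt-co2* had the highest level per length (22170 TPM).

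At 3 h, *mt-nd3*, *mt-co2* and *mt-co3* rose and *mt-nd4l* fell. *mt-nd3*, a membrane subunit of complex I, had 23579, 28434 and 34038 normalised counts at 0 h, 25760, 23411 and 28806 at 1 h, 39431, 39792 and 40144 at 3 h, and 23768, 23826 and 23966 at 6 h. Its 3 h libraries stood clear of all others, whereas its 6 h libraries fell within the range of 0 h. The change was 0.47 ± 0.11 at 3 h (edgeR, adjusted p = 0.0102) and -0.27 ± 0.11 at 6 h (adjusted p = 0.092), and the 3 h call was kept under every alternative run. *mt-co2* and *mt-co3* rose by 0.23 and 0.24 (adjusted p = 0.0239 and 0.0265), calls that were lost when replicate 1 or 2 of either time was left out, in a fit of the 2 times alone, with library totals alone and with the length trend removed (adjusted p of up to 0.122 and 0.131).

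*mt-nd4l* and *mt-nd5*, likewise membrane subunits of complex I, lay on the other side. *mt-nd4l* had 10098, 10423 and 9609 normalised counts at 0 h, 8485, 8139 and 9793 at 3 h, and 10583, 9945 and 10534 at 6 h. Its 3 h libraries overlapped those of 0 h, and the change of -0.19 ± 0.06 (edgeR, adjusted p = 0.0404) was lost when replicate 1 or 2 of either time was left out and in fits of the 2 times alone or with the replicate number as a block (adjusted p of up to 0.196). *mt-nd5* had 52805, 57718 and 55179 at 0 h, 49779, 49095 and 49826 at 3 h, and 54934, 57168 and 57629 at 6 h. Here every 3 h library was below every 0 h library, but the change of -0.16 ± 0.05 missed the threshold (adjusted p = 0.0508). From 3 h to 6 h, both genes rose, by 0.23 ± 0.06 and 0.19 ± 0.05 (adjusted p = 0.00698 and 0.0101), while 10 of the other 11 genes fell.

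Of these 11, *mt-nd3* fell most from 3 h to 6 h (-0.74 ± 0.11, edgeR, adjusted p = 0.000311), and *mt-atp8* was the 1 that was not called (-0.17, adjusted p = 0.301). These falls depended on the library factors. With library totals alone, the median of the 13 genes from 3 h to 6 h was -0.07 in place of -0.23, and with the length trend removed it was -0.13, both alternatives being chosen after seeing the data. At 6 h against 0 h, *mt-co2* and *mt-nd4* fell by 0.19 and 0.17 (adjusted p = 0.04 and 0.0424). The call of *mt-co2* was lost without 0 h replicate 2 or 3 or any of the 6 h libraries, and that of *mt-nd4* on leaving out replicate 2 or 3 of 0 h or replicate 1 or 2 of 6 h (up to 0.163 and 0.159). The remaining genes, *mt-co1*, *mt-cyb*, *mt-atp6*, *mt-atp8*, *mt-nd1*, *mt-nd2* and *mt-nd6*, were between -0.04 and 0.21 at 3 h and between -0.31 and -0.05 at 6 h, and none was called at either time.

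Some of these genes overlap. In the deposited annotation, *mt-nd4l* (11009 to 11305) overlaps *mt-nd4* (11299 to 12679), *mt-atp8* (8894 to 9058) overlaps *mt-atp6* (9052 to 9735), and *mt-nd5* (12897 to 14717) overlaps *mt-nd6* (14714 to 15232). *mt-nd6* is the single protein-coding gene on the minus strand, and its mRNA carries no long poly-A tail in human cells. Its 0 h libraries spread from 16077 to 26321 normalised counts, and reads of the opposite strand cannot be told apart from its own here, since the strand setting of the counting is not given.

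**Figure D4:**
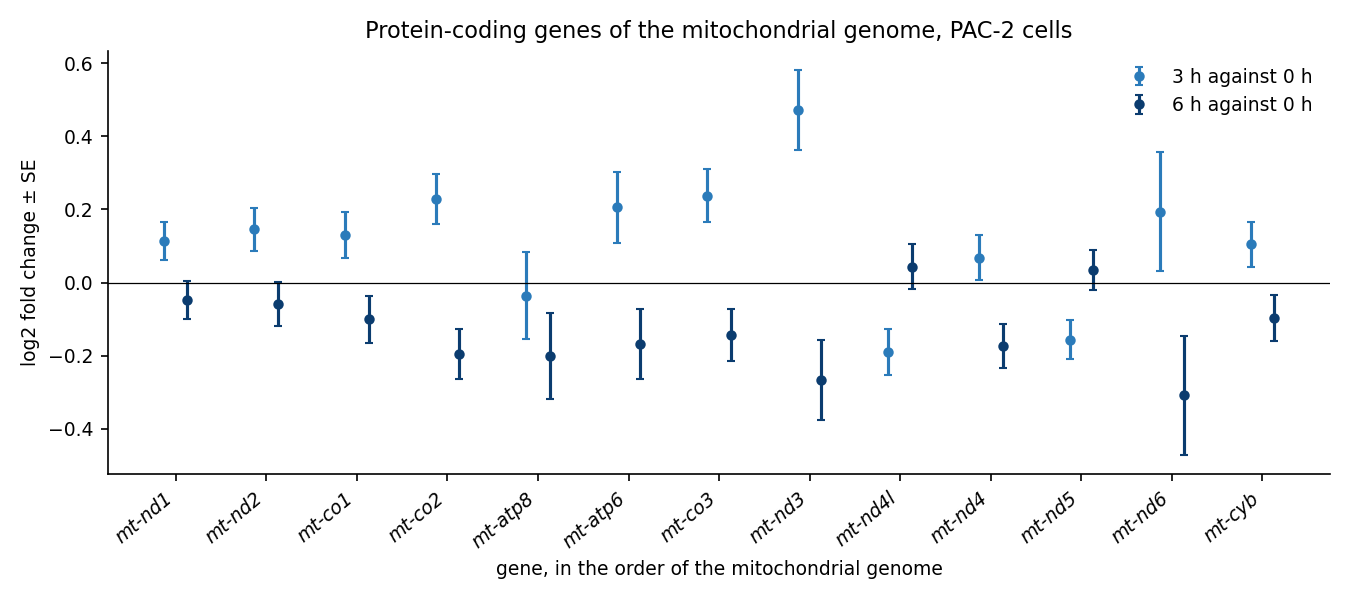
Log2 fold change ± SE (vertical axis) of the 13 protein-coding genes of the mitochondrial genome in PAC-2 cells after 3 h and 6 h of blue light, in their order along the genome (horizontal axis). *mt-nd3* has the highest value at 3 h, and *mt-nd4l* and *mt-nd5* lie below 0 at 3 h and just above 0 at 6 h.

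Genes that serve the respiratory chain without belonging to these complexes were counted in the same fit, with no test of a difference from the members. For the counts below, the shares of all genes were 11.3% higher and 10.1% lower at 3 h, and 14.1% and 14.9% at 6 h. Of 6 tested genes of complex II and cytochrome c, 3 rose and none fell at 3 h (median of 0.49), and at 6 h 3 rose and 1 fell (median of 0.15). *sdha* and *sdhb*, the catalytic subunits of complex II, rose by 0.87 and 0.70 at 3 h (edgeR, adjusted p = 1.66e-09 and 4.61e-06), and *cycsb*, a cytochrome c, by 0.43 (adjusted p = 0.000291). Of 26 assembly factors of complexes III to V, 14 rose and none fell at 3 h (median of 0.46), and 11 rose and 6 fell at 6 h (median of 0.16). Among them, *surf1*, a complex IV factor, and *ttc19*, a complex III factor, rose by 1.07 and 1.18 at 3 h (adjusted p = 1.66e-09 and 1.47e-08). Of 21 genes that copy, transcribe or process the mitochondrial genome, 4 rose and 1 fell at 3 h (median of 0.06), and 4 rose and 6 fell at 6 h (median of -0.14). *tfam*, which packages mitochondrial DNA, rose by 0.18 at 3 h and fell by 0.25 at 6 h (adjusted p = 0.0353 and 0.00344). Of 13 nuclear regulators of respiratory genes, 3 rose and 1 fell at 3 h (median of -0.06), and 3 rose and 7 fell at 6 h (median of -0.19). *esrra*, an orphan nuclear receptor, was at 0.79 (adjusted p = 5.83e-07) and *nrf1* at -0.39 (adjusted p = 0.000119) at 6 h.

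Some known subunits of complexes I, III and IV had almost no reads in the genome table. *ndufs4*, *ndufb4* and *ndufa12* had 0 reads in all 12 libraries, *ndufb5* had 1, *ndufs1*, the largest core subunit of complex I, had 2, *ndufa4* had 3, and *uqcrb* had between 1 and 13 per library. The table that the authors assembled from the PAC-2 libraries without a genome gave other values for the matching protein names. The row named NDUS4 had between 868 and 1668 counts per library, NDUB4 between 3519 and 6666, NDUAC (*ndufa12*) between 835 and 1561, NDUB5 between 2214 and 4412, NDUA4 between 8858 and 16606 and QCR7 (*uqcrb*) between 5757 and 10455. The row named NDUS1 had between 6177 and 10899, but it also carries names of other proteins. In the deposited annotation, *ndufs1*, *ndufb4* and *uqcrb* overlap another gene, and *ndufs4*, *ndufb5*, *ndufa12* and *ndufa4* overlap none. A low count of these genes in the genome table thus did not go with a low count in the assembled table, and the cause was not tested.

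*ndufa8*, a subunit of the intermembrane side of complex I, passed the count minimum but shares the pattern. It had between 20 and 171 reads per library, whereas the assembled row NDUA8 had between 2166 and 3587. In normalised counts, 0 h replicates 1 and 2 stood at 33.9 and 32.0, 0 h replicate 3 at 224.5, and the 9 light libraries between 21.3 and 46.6. Its log2 fold changes of -1.70 at 1 h, -1.32 at 3 h and -1.47 at 6 h, none of them called, thus rest on 0 h replicate 3.

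In the assembled table of PAC-2 cells, where a row is a Trinity gene and takes the name of its best match in UniProt, 124 rows carried names of these complexes and were tested. At 3 h, 46 were higher and none lower, against 8.87% and 6.15% of the 23412 rows tested, and at 6 h 11 were higher and 20 lower, against 10.5% and 11.8%. The nuclear rows had medians of 0.27 and -0.17. The 46 at 3 h rested on single libraries, with 6 rows higher without 0 h replicate 1, 7 without 3 h replicate 2, 12 without 0 h replicate 2 and 21 without 3 h replicate 1, whereas the median stayed between 0.23 and 0.33. The 20 at 6 h became 6 without 0 h replicate 3 and 8 to 10 without a 6 h library, and the 11 became 6 without 6 h replicate 2 and 7 without 6 h replicate 1. The shares of all rows called in these fits are not given here, so these counts have no background beside them. *cyc1*, *ndufv1* and *ndufaf4* were again among the rows that rose at 6 h, as CY1 (0.45), NDUV1 (0.45) and NDUF4 (0.50). The row past the thresholds of the study was named ATPMK, a small membrane subunit of complex V, and rose by 1.73 at 6 h from 157 to 523 normalised counts (edgeR, adjusted p = 0.000253). This row was named after its values were seen. ATPMK is also a name of the protein that *ATP5MD* encodes, whose log2 fold change on the genome was -0.90 from 3 h to 6 h. The ATPMK row went the other way, with 0.53 from 3 h to 6 h (edgeR, adjusted p = 0.0509), and the cause was not tested. The mitochondrial genome appeared as 41 rows of mostly partial transcripts, so that a count of these rows is no count of genes. Both tables come from the same libraries and are not independent of each other.

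In the cavefish line, the rows of these complexes were called at shares near those of all rows. Of 92 tested EPA rows, none was called higher or lower at 1 h (all rows: 0.285% and 0.0303%) or at 3 h (1.09% and 0.19%), and at 6 h 4 were higher and none lower (4.35% and 1.91%). At an unadjusted p under 0.05, edgeR gave 2 rows higher and 5 lower at 1 h, 2 and 3 at 3 h, and 14 and 0 at 6 h. Of all 23118 rows tested, 889 were higher and 818 lower at 1 h by this threshold, 1200 and 988 at 3 h, and 2451 and 2059 at 6 h. Between 1 and 7 rows were higher at 6 h when single libraries were left out, with 1 without 0 h replicate 1 or 6 h replicate 3, 2 without 0 h replicate 2 or 6 h replicate 1, and 7 without 6 h replicate 2. The shares of all rows called in those fits are not given here. The medians of the nuclear rows were 0.03 at 3 h and 0.06 at 6 h. Leaving out replicate 1, 2 or 3 of 6 h changed the latter to 0.0279, 0.106 or 0.0407, and leaving out replicate 1 of 0 h to 0.0373. The 3 h median ranged from 1e-04 with replicate 1 of 0 h left out to 0.0581 with replicate 3 of 0 h left out. In the EPA libraries at 3 h, the median log2 ratio of these rows to 0 h was 0.02 to 0.03, whereas in those of PAC-2 it was 0.20 to 0.34. The TMM factors of the EPA libraries also spread less, from 0.985 to 1.015, than the 0.919 to 1.055 of the PAC-2 libraries in their assembled table. The 4 rows that rose at 6 h were CY1 (cytochrome c1, from 3649 ± 62.3 to 4253 ± 49.7 normalised counts), 2 rows named COX7R, a factor that joins complexes III and IV, and AT5F1 (the peripheral stalk subunit that *atp5pb* encodes).

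To test the difference between the lines itself, counts of rows with the same name were summed and an interaction of line and time was fitted in edgeR over the 6235 names present in both tables. Of the names of the complexes, 63 were tested, 58 nuclear and 5 mitochondrial. At 3 h, the response was higher in PAC-2 than in EPA cells for 22 names (34.9%) and lower for none, against 11.9% and 15.3% of all names. The difference was above 0 for 62 of the 63, with a median of 0.25, against 2903 of all 6235 names and a median of -0.02. The 22 became 13 without PAC-2 0 h replicate 1, 14 without PAC-2 3 h replicate 2 and 34 without PAC-2 0 h replicate 3. The shares of all names called in those fits are not given here. At 6 h, the response was higher in PAC-2 cells for 2 names, CY1 and NDUF4, and lower for 20 (31.7%), against 18.8% and 28.6% of all names. The share of lower responses called at 6 h was thus near that of all names, while the share of higher ones was below it. By sign, the difference was below 0 for 58 of the 63, against 3563 of all 6235 names. Its median was -0.18 for the 63 and -0.05 for all names. How the 6 h difference moved with single libraries left out is not given here. Both lines are 1 cell line each, and cell line and species cannot be told apart.

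NDUF4, the name of *ndufaf4*, differed most at 3 h by p, with responses of 0.75 in PAC-2 and -0.04 in EPA cells and a difference of 0.79 ± 0.13 (edgeR, adjusted p = 0.000114). At 6 h the difference was 0.40 ± 0.13 (adjusted p = 0.0138). CY1 responded in both lines at 6 h, by 0.46 in PAC-2 and 0.22 in EPA cells, with a difference of 0.24 ± 0.07 (adjusted p = 0.00873), and at 3 h the values were 0.40 and 0.03 (difference of 0.37 ± 0.07, adjusted p = 0.000601). COX7R went in opposite directions at 6 h, with -0.24 in PAC-2 and 0.22 in EPA cells (difference of -0.46 ± 0.07, adjusted p = 2.98e-05). NDUA4, a subunit now counted to complex IV and nearly without reads in the genome table, had a higher 3 h response in PAC-2 cells (0.33) than in EPA cells (-0.05), by 0.38 ± 0.07 (adjusted p = 0.000713). The 5 mitochondrial names were not called at 3 h or 6 h, with an SE of the difference at 3 h from 0.06 for COX1 to 0.82 for CYB, so that differences of the size seen in nuclear names were not detectable for some of them.

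**Figure D5:**
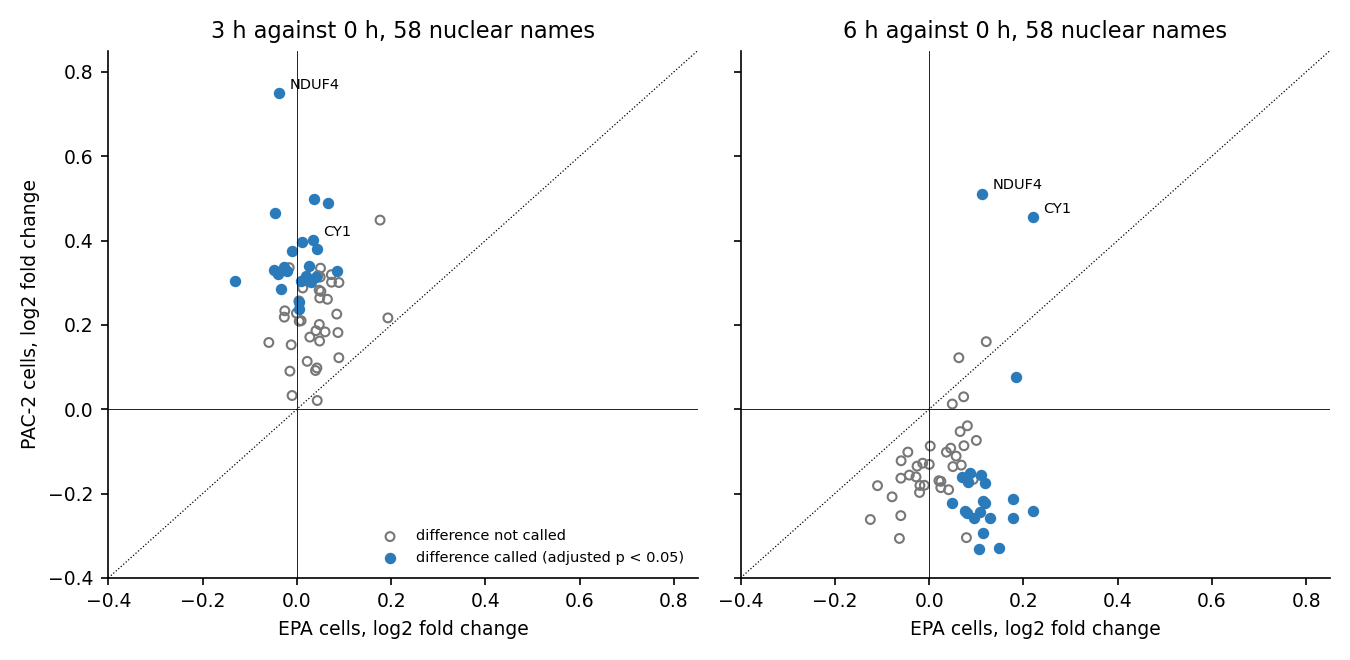
Log2 fold change against 0 h of the 58 nuclear protein names in EPA cells (horizontal axes) and PAC-2 cells (vertical axes) at 3 h (left) and 6 h (right) of blue light, with filled dots where the interaction test called the difference and a dotted line of equal response. At 3 h all but 1 of the names lie above the line, and at 6 h most lie below it, with CY1 and NDUF4 among those above.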

How the data were processed

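RNA-seq was analysed from 12 PAC-2 and 12 EPA libraries (poly-A selection, paired-end reads, 3 libraries per line and time). The deposited PAC-2 table holds raw counts per gene on GRCz11, made for the authors by Novogene, with aligner, counter, annotation release and strand setting not given in the sources used here. For both lines, the authors also deposited expected counts per Trinity gene from salmon, after assembly with Trinity 2.13.2 and naming by Blast-X 2.13 against UniProt; these were rounded to whole numbers here. FPKM values and gene ontology tables were not used. Names from UniProt are best matches that often come from another species, and where a row names several proteins the first was taken. Rows matched to these complexes were 124 in PAC-2 and 93 in EPA, and 1 row with a bacterial name was left out.

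Total counts per library were 20037859 to 32521127 for PAC-2 on the genome, 25642129 to 41784075 in its assembled table and 28222136 to 40053900 in EPA. edgeR 4.0.16 in R 4.3.3 was run on all genes (filterByExpr by time, TMM factors, robust quasi-likelihood fit over 12 libraries with 8 residual degrees of freedom), with Benjamini-Hochberg adjusted p under 0.05 as the threshold. The SE of a log2 fold change is its size divided by the square root of F. For the lines, counts of the same protein name were summed, each library kept the factors of its own table, and the interaction of line and time was tested. Shares were compared with exact permutation tests. The edgeR fit of the PAC-2 genome counts was tried on counts simulated from its own means and spread, with some genes raised at 6 h. That simulation held no trend with gene length, and it does not bear on the questions of gene length or library composition.

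Alternatives were DESeq2 1.42.0, RLE factors, factors without mitochondrial genes, no filter, the 2 times alone, a replicate block, each library left out, the thresholds of the study, members without assembly factors, summed names and rows with 1 name. Library totals alone, removal of the length trend, names in lower case only, 6 h against 3 h, the 3 h difference between lines, and leaving out libraries at 1 h and 3 h in the assembled tables were chosen after seeing the data. The members and gene lists were chosen with earlier results of these data known. Named with values were all mitochondrial genes, in each nuclear group the 3 genes with the smallest p at 6 h in each direction and the highest TPM at 0 h, members past the thresholds of the study, paralogs of the cox4i, cox6a, cox6b, cox7a and cox8 families, and the members with the lowest counts; genes named beyond this were chosen after their values were seen. The gene names ignore case, which adds 7 names printed in upper case. No sequences are shown.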

Additional observations from a re-analysis of the deposited data

Results flagged for a closer look

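The responses of the 2 lines differed by the interaction test of edgeR. After 3 h of light, 22 protein names had a higher response in PAC-2 than in EPA cells and 0 a lower one, against 11.9% and 15.3% of all names. At an unadjusted p under 0.05, 39 were higher and 0 lower, against 1088 and 1360 of all 6235 names. After 6 h, 2 names had a higher and 20 (31.7%) a lower response in PAC-2 cells, against 18.8% and 28.6% of all names, so that the share of lower responses called was near that of all names. By sign, 58 of the 63 differences at 6 h were below 0, against 3563 of all 6235 names. Among the names with the smallest p, the response of PAC-2 cells minus that of EPA cells was 0.79 for NDUF4 and 0.37 for CY1 at 3 h. At 6 h it was 0.24 for CY1, 0.40 for NDUF4, -0.46 for COX7R and -0.44 for NDUBB, the name of *ndufb11*, a membrane-arm subunit of complex I. NDUBB stood at -0.33 in PAC-2 and 0.10 in EPA cells. The lines were normalised in separate tables, and the TMM factors moved with time in PAC-2 libraries (0.919 to 1.055) more than in EPA libraries (0.985 to 1.015). The part of this in the differences was not tested.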

How the results depend on the processing

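The medians of the nuclear members at 3 h, 6 h and 6 h against 3 h kept their direction under all alternatives run. Over single libraries left out, 33 to 69 members rose and 0 to 1 fell at 3 h, 14 to 55 fell at 6 h, and the nuclear medians ranged from 0.24 to 0.35 at 3 h, from -0.28 to -0.15 at 6 h and from -0.51 to -0.45 for 6 h against 3 h. The mitochondrial medians ranged from -0.116 to -6e-04 at 1 h, 0.0656 to 0.196 at 3 h and -0.215 to -0.0366 at 6 h, and the ratio of the mitochondrial share of counts to 0 h from 1.01 to 1.08 at 3 h and 0.924 to 0.989 at 6 h. In the assembled tables, 6 to 61 PAC-2 rows rose and 0 to 1 fell at 3 h, 6 to 8 rose and 6 to 30 fell at 6 h (median from -0.21 to -0.12), and 1 to 7 EPA rows rose at 6 h, with a median from 1e-04 to 0.0581 at 3 h and from 0.0279 to 0.106 at 6 h. The 3 h difference between the lines was called higher for 13 to 34 names, with a median from 0.20 to 0.29. For these fits with a library left out, the shares of all genes, rows or names called are not given here.

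With library totals alone, 3 members fell at 3 h, 5 rose at 6 h and 4 were higher at 6 h than at 3 h. The nuclear medians were then 0.19, -0.15 and -0.32 (3 h, 6 h and 6 h against 3 h), and the mitochondrial ones 0.0295, -0.0836 and -0.0718. With the length trend removed, 2 members fell at 3 h, and the medians were -0.17 and -0.36 for nuclear genes (6 h and 6 h against 3 h) and 0.0574, -0.0839 and -0.134 for mitochondrial genes. The 1 decrease at 3 h became 2 with DESeq2 and with RLE factors and 0 with the 2 times alone. The thresholds of the study left 0 members in place of 55, 1, 3 and 32. By summed TPM, the mitochondrial share at 6 h was 0.972 times that at 0 h, against 0.955 by counts. Summing names left 5 PAC-2 names higher at 6 h, and RLE factors gave a median difference of 0.24 between the lines at 3 h. The cause of these shifts was not tested.

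Deviations of libraries with the same replicate number were weakly correlated between 0 h and 1 h (0.03 to 0.137, against -0.115 to 0.033 for different numbers). Between 0 h and 3 h or 6 h, the correlations of the same number were -0.069 to 0.03. Light times were not compared with each other. The numbers were not taken as pairs in the main fit. With the replicate block, 60 members rose and 0 fell at 3 h, 3 rose and 36 fell at 6 h, and 2 were higher and 86 lower at 6 h than at 3 h. The 40 called values of named members kept direction and call in 563 of 640 alternatives, were no longer called in 77 and reversed in 0. Of these losses, 54 came with a library left out, 8 with library totals alone and 7 with the length trend removed. Another 6 came with the 2 times alone, 1 with no filter and 1 with the replicate block. The losses given gene by gene above are mostly those with a library left out, and not all of the others are named. Leaving out assembly factors or upper-case names changes only which members are counted, not the fit. Those alternatives kept all 40 values by construction and are among the 640.

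With 3 libraries per time, the precision is set by the spread between libraries rather than by depth for most members; the mean raw count was under 100 for *cox6a2*, *ndufa8* and *cox7a3* alone.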
